A study of Mus musculus with 7 samples.

Results

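Pre-mRNA splicing is carried out by the spliceosome, which is assembled on each intron from small nuclear ribonucleoproteins (snRNPs) and many further proteins. SR proteins, encoded by the Srsf genes, and the similar TRA2 proteins bind exons and recruit the splicing machinery. The CLK kinases phosphorylate their arginine- and serine-rich domains in the nucleus. Many hnRNP proteins bind the same transcripts and often act against SR proteins at a splice site. The genes described here were the rows of the count table whose symbols begin with Srsf, Hnrnp, Sf3a, Sf3b, Snrp, Clk followed by a digit, Prpf, U2af, Luc7l, Tra2 or Rbm followed by a digit. The name pattern matched 116 of 23347 rows, and 1 pseudogene, Rbm3-ps, was left out, so that 115 splicing genes remained. Of these, 113 are protein-coding and 2 are long non-coding RNAs named after a neighbouring Rbm gene. Rbm means RNA-binding motif, and not every Rbm protein is a splicing factor.

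Liver RNA from 4 mice labelled WT-CDAHFD, of the genotype B4galt1 flox/flox, and 3 mice labelled B4-HKO-CDAHFD, of the genotype B4galt1 hep-/-, was sequenced in 1 library per mouse. B4galt1 encodes a galactosyltransferase. All the mice were males on a C57BL/6 background, were at least 6 weeks old when the diet began, carried floxed B4galt1, and received a choline-deficient, amino acid-defined high-fat diet (CDAHFD), which brings on steatohepatitis, for 15 weeks. The B4galt1 hep-/- mice also carried Cre recombinase under the albumin promoter, which acts in hepatocytes, whereas the RNA came from whole liver. Chow-fed livers were not analysed here. In bulk liver RNA, fewer cells of a type and less RNA per cell cannot be told apart.

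Library totals lay between 37838654 and 39668509 counts for B4galt1 flox/flox and between 30608271 and 34586588 counts for the livers labelled B4galt1 hep-/-. B4galt1 was measured at 48.7, 53.0, 49.2 and 51.6 CPM (a gene's counts relative to the library's total, scaled by edgeR's TMM method) in B4galt1 flox/flox livers and at 28.4, 23.9 and 53.7 CPM in livers labelled B4galt1 hep-/-. Replicate 3 of the latter group lay above every B4galt1 flox/flox liver, although its label is B4-HKO-CDAHFD. The gene did not pass the test (log2 fold change -0.52, SE 0.26, adjusted p = 0.181 by edgeR with Benjamini-Hochberg adjustment). Counts cover the whole gene, and reads over its floxed part were not counted apart. Because of the level in replicate 3, the groups are named by their labels, and the main counts are also given without that library. Hepatocyte markers were plainly present, with Alb between 57197 and 112935 CPM. Among controls the share of mitochondrially encoded transcripts was 5.79% ± 1.70 (SD, n = 4). In the livers labelled B4galt1 hep-/- it was 19.7% ± 4.58 (SD, n = 3), and an exact permutation test (two-sided) gave p = 0.0286, which is the lowest value possible with 4 against 3 mice. The labels do not say whether the mice were housed or processed in batches, so p-values measure the spread between these mice.

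Of the 115 splicing genes, 110 had enough counts to be tested. The untested genes were Rbm11, Rbm3os, Rbm44, Rbm46os and Srsf12, with between 0 and 10 counts in each library. In livers labelled B4galt1 hep-/-, 35 of the 110 (31.8%) were called higher, beside 8.00% of the 15179 tested genes, and 7 (6.36%) were called lower, beside 7.83%. Called genes had an adjusted p under 0.05 (edgeR, Benjamini-Hochberg adjustment over all tested genes) together with an absolute log2 fold change over 0.58. The median log2 fold change was 0.33 for the splicing genes and 0.02 for all tested genes. The increases ran from 1.64-fold to 3.55-fold. In 46 splicing genes (41.8%) every liver labelled B4galt1 hep-/- lay above every B4galt1 flox/flox liver, beside 13.6% of tested genes, and in 14 (12.7%) every one lay below, beside 15.0%. The groups overlapped in 1 of the 42 called genes, Prpf38b.

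The splicing genes together took 0.595% to 0.695% of the non-mitochondrial counts in B4galt1 flox/flox livers and 0.842% to 1.13% in livers labelled B4galt1 hep-/-, so that these ranges did not overlap. Expression level differed between the splicing genes and the rest, with a median log2 CPM of 5.18 against 3.65. Among tested genes at or above the median CPM of 12.6, 9.03% were called higher and 12.0% lower, and of the 93 splicing genes at that level 32 (34.4%) were called higher and 5 (5.38%) lower. Without replicate 3 of the livers labelled B4galt1 hep-/-, 28 splicing genes were called higher and 12 lower, beside 6.28% and 7.51% of tested genes, and the median log2 fold change was 0.25. Among the fits that left out 1 mouse, the lowest number of increases, 21, was found without B4galt1 flox/flox replicate 2, where 2 were called lower and the shares of tested genes were 2.74% and 3.16%. Without B4galt1 flox/flox replicate 1 the counts were 33 higher and 8 lower, beside 8.66% and 7.41%. Without its replicate 3 they were 28 and 3, beside 4.65% and 4.71%, and without its replicate 4 they were 28 and 4, beside 4.98% and 5.35%. Without replicate 1 or replicate 2 of the livers labelled B4galt1 hep-/- they were 30 and 3, beside 6.48% and 5.21% for the former and 3.92% and 3.84% for the latter.

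**Figure D1:**
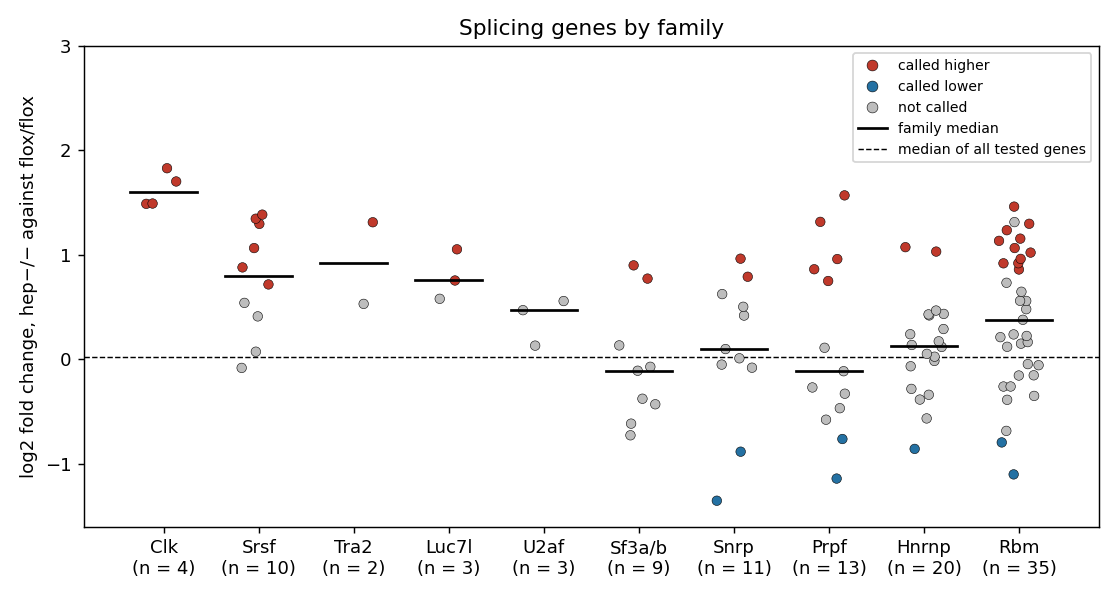
Each point is 1 tested splicing gene, placed by its log2 fold change in livers labelled B4galt1 hep-/- (n = 3) against B4galt1 flox/flox livers (n = 4) on the y axis and by its family on the x axis. Thick lines are family medians and the dashed line is the median of all tested genes, 0.02. The Clk family has the highest median, 1.60. The families from Clk to U2af hold 13 red points, called higher, and no blue ones, although U2af itself holds no called gene. The Sf3a/b family holds 2 red points and no blue ones, whereas the Snrp, Prpf, Hnrnp and Rbm families hold both.

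Expression of all 4 CLK kinase genes was increased, beside 8.00% of tested genes called higher and 7.83% lower. Clk1 (NCBI gene 12747) was measured at 81.6, 94.6, 64.7 and 119 CPM in B4galt1 flox/flox livers and at 267, 386 and 226 CPM in livers labelled B4galt1 hep-/- (log2 fold change 1.70, SE 0.25, adjusted p = 0.00372 by edgeR). The lowest value of the second group lay well above the highest of the first. Clk2 (NCBI gene 12748) had the largest fold change of all called splicing genes, 3.55-fold, although at a low level, with 6.05, 2.58, 2.41 and 4.18 CPM against 12.5, 18.2 and 9.93 CPM. Clk3 rose 2.81-fold, from 31.0, 23.8, 23.9 and 28.3 CPM to 57.6, 89.8 and 78.5 CPM. Clk4 rose 2.81-fold as well, from 52.0, 45.0, 31.4 and 61.3 CPM to 106, 162 and 132 CPM. In each of the 4 genes the groups were fully separated, beside 13.6% of tested genes with every liver labelled B4galt1 hep-/- above. All 4 calls were kept in each of the 7 fits that left out 1 mouse. Per length, Clk1 was the most abundant of them, with a mean of 95.8 FPKM over the 7 livers, followed by Clk4 with 19.1, Clk3 with 12.6 and Clk2 with 3.43. Further kinases of SR proteins, Srpk1, Srpk2, Srpk3 and Dyrk1a, were not called in either direction by edgeR (0 of 4), although 1 was higher at an unadjusted p under 0.05 and 1 by DESeq2.

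The Srsf genes were higher in 6 of 10 tested cases and lower in none, beside 8.00% and 7.83% of tested genes, and none was lower at an unadjusted p under 0.05 or by DESeq2. Srsf6 (NCBI gene 67996) was measured at 120, 108, 88.5 and 138 CPM in B4galt1 flox/flox livers and at 253, 323 and 314 CPM in livers labelled B4galt1 hep-/- (log2 fold change 1.39, SE 0.21, adjusted p = 0.00372 by edgeR). Srsf7, whose product links splicing to mRNA export, was measured at 33.6, 33.6, 31.4 and 45.1 CPM against 98.5, 93.8 and 81.6 CPM, a 2.54-fold increase. Srsf11, Srsf4, Srsf2 and Srsf10 were also called, with log2 fold changes of 1.30, 1.07, 0.88 and 0.72. The calls of Srsf2 and Srsf10 were less firm, being kept in 3 and 2 of the 7 fits that left out 1 mouse. Srsf3 and Srsf5 gave no call. Srsf3 was measured at 55.0 to 77.4 CPM against 59.4 to 74.8 CPM (log2 fold change 0.07, SE 0.19, adjusted p = 0.811 by edgeR), and its small difference took the opposite sign on the FPKM scale and without replicate 1 of the livers labelled B4galt1 hep-/-. Srsf5, the SR protein gene with the highest mean FPKM, 114, spread widely among controls, from 66.9 to 235 CPM, and reached 161, 253 and 232 CPM in the other group (log2 fold change 0.41, SE 0.36, adjusted p = 0.448 by edgeR).

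The TRA2 proteins bind GAA-rich exonic enhancers and resemble SR proteins. Tra2a was measured at 34.2, 33.1, 41.3 and 38.1 CPM in B4galt1 flox/flox livers and at 83.2, 113 and 77.6 CPM in livers labelled B4galt1 hep-/- (log2 fold change 1.31, SE 0.19, adjusted p = 0.00347 by edgeR). Its paralog Tra2b was measured at 41.3, 56.0, 64.4 and 61.1 CPM against 88.8, 67.8 and 85.0 CPM. The groups of Tra2b did not overlap, but the gene did not pass the test (log2 fold change 0.53, SE 0.20, adjusted p = 0.0909 by edgeR). The difference between the paralogs was not tested.

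**Figure D2:**
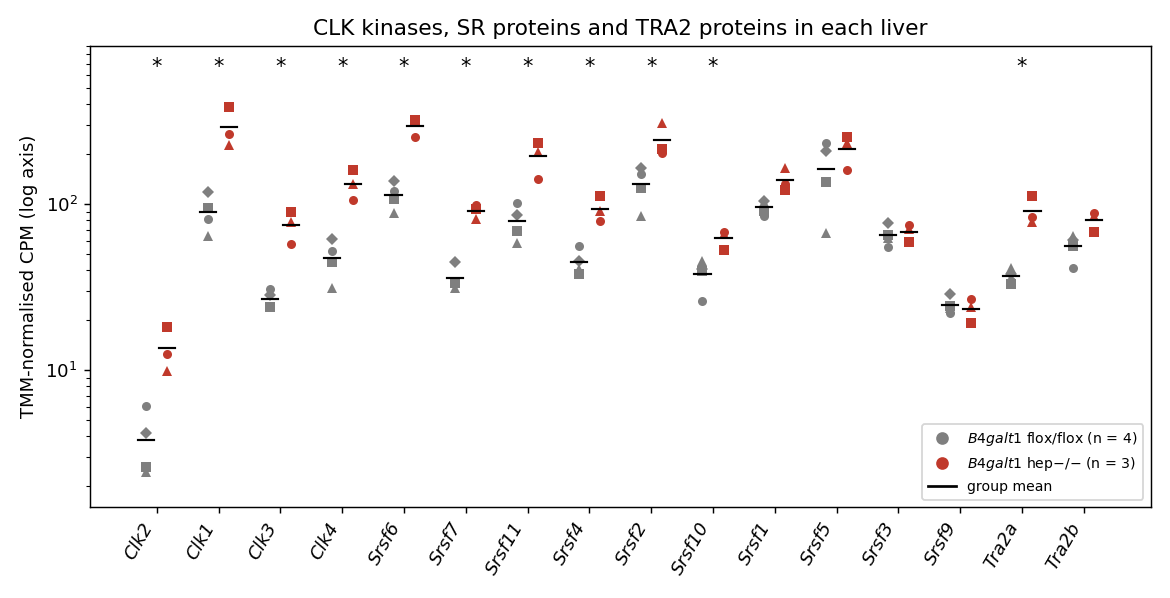
TMM-normalised CPM on a log axis (y) is plotted for each CLK, SR and TRA2 gene (x), with 1 point per liver, grey for B4galt1 flox/flox (n = 4) and red for livers labelled B4galt1 hep-/- (n = 3), a marker shape per replicate number and a line at each group mean. Asterisks mark the 11 genes called higher. The red points of Clk1 lie between 226 and 386 CPM and the grey ones between 64.7 and 119 CPM, whereas the points of Srsf3 and Srsf5 intermingle.

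Promoter sequences were matched for 92 of the 110 tested genes, in 115 promoters, from RefSeq on GRCm38.p6. The 250 bases before the start were searched on both strands for the CRE motif TGACGTCA, the ETS motif CCGGAAGT, the CCAAT box CCAAT, the YY1 motif AAGATGGC, the GC box GGGCGG and the E-box CACGTG. The sequences below are those of 3 strongly increased SR-system genes and of a decreased gene for a U1 snRNP protein, and they show how unlike these windows were. Capitals mark matches to the motifs, none of which overlapped in these windows. Those of Clk4 (chr11:51262864-51263113, plus strand), Tra2a (chr6:49264053-49264302, minus strand), Srsf7 (chr17:80207306-80207555, minus strand) and Snrpc (chr17:27839837-27840086, plus strand) read, on the strand of the gene and ending at the base before the start:
Clk4: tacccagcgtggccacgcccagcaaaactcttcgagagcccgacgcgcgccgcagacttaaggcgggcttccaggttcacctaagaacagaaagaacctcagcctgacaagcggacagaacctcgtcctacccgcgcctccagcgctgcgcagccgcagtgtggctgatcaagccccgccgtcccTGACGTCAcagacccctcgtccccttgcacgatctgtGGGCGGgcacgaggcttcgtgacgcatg
Tra2a: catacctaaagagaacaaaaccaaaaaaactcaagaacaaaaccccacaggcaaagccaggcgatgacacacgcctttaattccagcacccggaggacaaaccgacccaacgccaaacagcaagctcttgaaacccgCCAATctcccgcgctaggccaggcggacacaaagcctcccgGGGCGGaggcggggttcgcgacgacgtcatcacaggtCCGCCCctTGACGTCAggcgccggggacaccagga
Srsf7: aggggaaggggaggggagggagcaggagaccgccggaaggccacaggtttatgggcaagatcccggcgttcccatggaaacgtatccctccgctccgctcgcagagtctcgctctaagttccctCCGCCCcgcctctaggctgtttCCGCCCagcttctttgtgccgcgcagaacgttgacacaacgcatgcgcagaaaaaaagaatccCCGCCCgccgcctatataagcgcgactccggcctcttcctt
Snrpc: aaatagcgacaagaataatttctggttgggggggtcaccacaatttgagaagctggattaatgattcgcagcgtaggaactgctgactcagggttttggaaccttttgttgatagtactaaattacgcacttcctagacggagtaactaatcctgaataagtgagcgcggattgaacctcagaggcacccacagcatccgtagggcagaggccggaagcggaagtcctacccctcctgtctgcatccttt
In Clk4 the CRE match began 65 bases before the start and a GC box 28 bases before it. In Tra2a the CRE match began 27 bases before the start, next to GC boxes at 35 and 72 bases and a CCAAT box at 113 bases. Srsf7 held 3 GC boxes and none of the other motifs, and Snrpc held no match. A CRE match was found in 2 of the 40 promoters of called-higher splicing genes, the printed ones of Clk4 and Tra2a. It was found in 0 of the 7 promoters of called-lower genes and in 2.94% of the 68 of genes not called. The shares were 2.35% for the promoters of tested genes and 1.55% for all 32851 promoters. The GC box was found in 67.5%, 42.9%, 51.5%, 52.4% and 32.7% of the same sets. The CCAAT box, which the printed Snrpc window lacked, was found in 40.0%, 57.1%, 48.5%, 34.7% and 33.8%. A match describes the letters in the window, and no binding was measured.

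The LUC7-like proteins associate with the U1 snRNP and affect the choice of the 5′ splice site. Luc7l rose 2.08-fold, from 37.0, 28.3, 29.9 and 27.4 CPM to 49.0, 83.3 and 58.6 CPM, and Luc7l3 rose 1.69-fold, from 58.6, 62.2, 48.7 and 56.5 CPM to 76.8, 112 and 97.6 CPM. The groups of both were separated, but the call of Luc7l3 was lost without B4galt1 flox/flox replicate 2, 3 or 4 and without replicate 2 of the other group. Luc7l2 was not called (log2 fold change 0.58, SE 0.27, adjusted p = 0.153 by edgeR). U2AF recognises the 3′ end of the intron, its large subunit binding the polypyrimidine tract and its small subunit the AG. Of the 3 Luc7l genes 2 were thus called higher, and none of the 3 U2af genes was called by edgeR or by DESeq2, beside 8.00% of tested genes higher and 7.83% lower, although 2 were higher at an unadjusted p under 0.05. Their log2 fold changes were 0.56 (SE 0.19, adjusted p = 0.0684) for U2af1, 0.47 (SE 0.20, adjusted p = 0.123) for U2af2 and 0.13 (SE 0.20, adjusted p = 0.685) for U2af1l4, by edgeR. U2af1 was measured at 24.1 to 37.7 CPM in B4galt1 flox/flox livers and at 42.8 to 50.4 CPM in the other group, with no overlap.

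SF3A and SF3B are parts of the U2 snRNP, which binds the branch point. Of their 9 genes, 2 were called higher and none lower, beside 8.00% and 7.83% of tested genes, and the family median was -0.11. By DESeq2 1 gene was lower, and 2 were lower at an unadjusted p under 0.05. Sf3b1, which encodes the largest SF3B subunit, was measured at 193, 176, 165 and 181 CPM in B4galt1 flox/flox livers and at 276, 420 and 304 CPM in livers labelled B4galt1 hep-/- (log2 fold change 0.90, SE 0.20, adjusted p = 0.0150 by edgeR), a call that was lost without B4galt1 flox/flox replicate 2. Sf3a2 was the other, with a log2 fold change of 0.77. The other 7 genes ranged from -0.73 (Sf3b6, adjusted p = 0.0623 by edgeR) to 0.13 (Sf3a3).

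Within the 11 snRNP protein genes 2 were called higher and 2 lower, beside 8.00% and 7.83% of tested genes. Sm proteins form the ring around the snRNA of the U1, U2, U4 and U5 snRNPs, and 7 genes of the family encode them. Snrpb, which encodes SmB, had the largest decrease of all splicing genes, from 41.7, 38.8, 51.5 and 35.7 CPM to 17.8, 9.92 and 21.5 CPM (log2 fold change -1.35, SE 0.26, adjusted p = 0.00889 by edgeR). Snrpd1, which encodes another protein of the ring, rose 1.95-fold, from 11.3, 12.9, 13.1 and 16.5 CPM to 32.0, 23.7 and 23.1 CPM. Both groups of both genes were fully separated, and both calls were kept in each fit that left out 1 mouse. Snrpf was called higher as well, with a log2 fold change of 0.79. Snrpd2 missed the threshold (log2 fold change 0.63, SE 0.21, adjusted p = 0.0636 by edgeR) although its groups, 32.3 to 47.9 CPM and 50.3 to 74.6 CPM, did not overlap, and DESeq2 called it higher. Snrpd3, Snrpe and Snrpg had log2 fold changes of 0.50, -0.08 and 0.01 and were not called. Snrpc, which encodes the U1-C protein, was called lower, at 18.0, 23.0, 22.3 and 24.2 CPM against 11.9, 7.60 and 16.1 CPM, and its call was kept in 2 of the 7 fits that left out 1 mouse. The family median was 0.10, and it was -0.01 on the FPKM scale.

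The Prpf genes carry the names of yeast pre-mRNA processing factors and encode proteins of unlike roles. Of 13 tested, 5 were called higher and 2 lower, beside 8.00% and 7.83% of tested genes, with a median of -0.11. Prpf40b and Prpf39, whose products are related to yeast U1 snRNP proteins, rose 2.97-fold and 2.49-fold. Prpf40b was measured at 21.4, 11.6, 8.11 and 15.2 CPM against 25.2, 65.9 and 34.3 CPM, a wide spread in which replicate 2 of the livers labelled B4galt1 hep-/- stood highest, and the call was lost without that replicate and without B4galt1 flox/flox replicate 2. Prpf39 was measured at 36.3, 29.3, 20.4 and 41.8 CPM against 62.2, 102 and 74.4 CPM. Prpf4b, a kinase gene, had a log2 fold change of 0.96 and Prpf3, of the tri-snRNP, 0.75. The paralogs Prpf38a and Prpf38b were called in opposite directions. Prpf38a fell from 6.21, 7.86, 10.1 and 6.24 CPM to 2.53, 4.07 and 3.75 CPM (log2 fold change -1.14, SE 0.29, adjusted p = 0.0245 by edgeR). Prpf38b, per length the most abundant Prpf gene, was measured at 78.5, 57.3, 50.9 and 59.6 CPM against 77.9, 140 and 118 CPM (log2 fold change 0.86, SE 0.23, adjusted p = 0.0299 by edgeR). The call of Prpf38a was kept in 4 of the 7 fits that left out 1 mouse, being lost without B4galt1 flox/flox replicate 2 or 3 or without replicate 1 of the other group, and that of Prpf38b in 2 of 7, the fits without B4galt1 flox/flox replicate 1 or without replicate 1 of the other group. Prpf19, a ubiquitin ligase of the Prp19 complex, was called lower with a log2 fold change of -0.76. Prpf8, the large central protein of the U5 snRNP, was not called (log2 fold change -0.47, SE 0.21, adjusted p = 0.138 by edgeR), and Prpf6 passed the adjusted p (0.0442 by edgeR) with a log2 fold change of -0.58 that fell just short of the fold threshold.

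Of 20 hnRNP genes, 2 were called higher, 1 lower and 17 not at all, which is near the shares of all tested genes, 8.00% higher and 7.83% lower. Hnrnph3 rose 2.11-fold, from 21.9, 17.8, 16.3 and 19.8 CPM to 28.4, 53.4 and 38.0 CPM, and its relative Hnrnph1, which binds G runs, rose 2.04-fold, from 138, 106, 92.2 and 129 CPM to 183, 287 and 243 CPM. Their relatives Hnrnph2 (log2 fold change -0.01, SE 0.24, adjusted p = 0.974 by edgeR) and Hnrnpf (log2 fold change 0.29) were not called. Hnrnpr was called lower, with narrow groups of 26.9, 25.6, 28.4 and 27.7 CPM against 15.8, 13.5 and 15.7 CPM (log2 fold change -0.86, SE 0.17, adjusted p = 0.00948 by edgeR). Hnrnpa2b1 had the highest mean FPKM of the family, 80.9, and was not called, at 310 to 361 CPM against 348 to 522 CPM (log2 fold change 0.44, SE 0.20, adjusted p = 0.159 by edgeR). In 5 of the 20 genes every liver labelled B4galt1 hep-/- lay above every B4galt1 flox/flox liver, beside 13.6% of tested genes, and in 4 every one lay below, beside 15.0%.

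The Rbm genes formed the largest family, with 35 tested, 11 called higher and 2 lower, and a median log2 fold change of 0.38. Without them, 24 of the other 75 splicing genes were called higher and 5 lower, and the shares of all tested genes were 8.00% and 7.83%. Rbm12b1 had the largest increase, from 7.63, 9.91, 7.38 and 12.7 CPM to 25.1, 24.0 and 28.6 CPM (log2 fold change 1.46, SE 0.22, adjusted p = 0.00380 by edgeR). Rbm12b2 is a near copy of it, so reads could be split between them, and it was called too, with a log2 fold change of 1.30. Rbm5, Rbm6 and Rbm10, which encode related regulators of exon choice, were called higher with log2 fold changes of 1.16, 1.24 and 1.13. Rbm39, a relative of U2AF, and Rbm25 both had log2 fold changes of 0.92. Rbm15, Rbm26, Rbm28 and Rbm38 were the remaining increases, between 0.86 and 1.07. Rbm45 was called lower, at 7.86, 12.9, 11.2 and 8.22 CPM against 4.29, 2.59 and 7.17 CPM (log2 fold change -1.10, SE 0.34, adjusted p = 0.0480 by edgeR). Rbm3, a cold-inducible RNA-binding protein gene, was measured at 92.4, 118, 118 and 120 CPM against 59.6, 49.0 and 85.4 CPM (log2 fold change -0.79, SE 0.22, adjusted p = 0.0342 by edgeR). The groups of both genes were separated, and both calls were kept in 2 of the 7 fits that left out 1 mouse, those without B4galt1 flox/flox replicate 1 and without replicate 3 of the other group. Reads of Rbm3 may also be shared with its antisense partner Rbm3os, since the strand setting of the counting was not given in the sources used here. Rbm3os held 2 to 10 counts in each library. Sharing of reads with a pseudogene copy is possible too and was not measured.

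**Figure D3:**
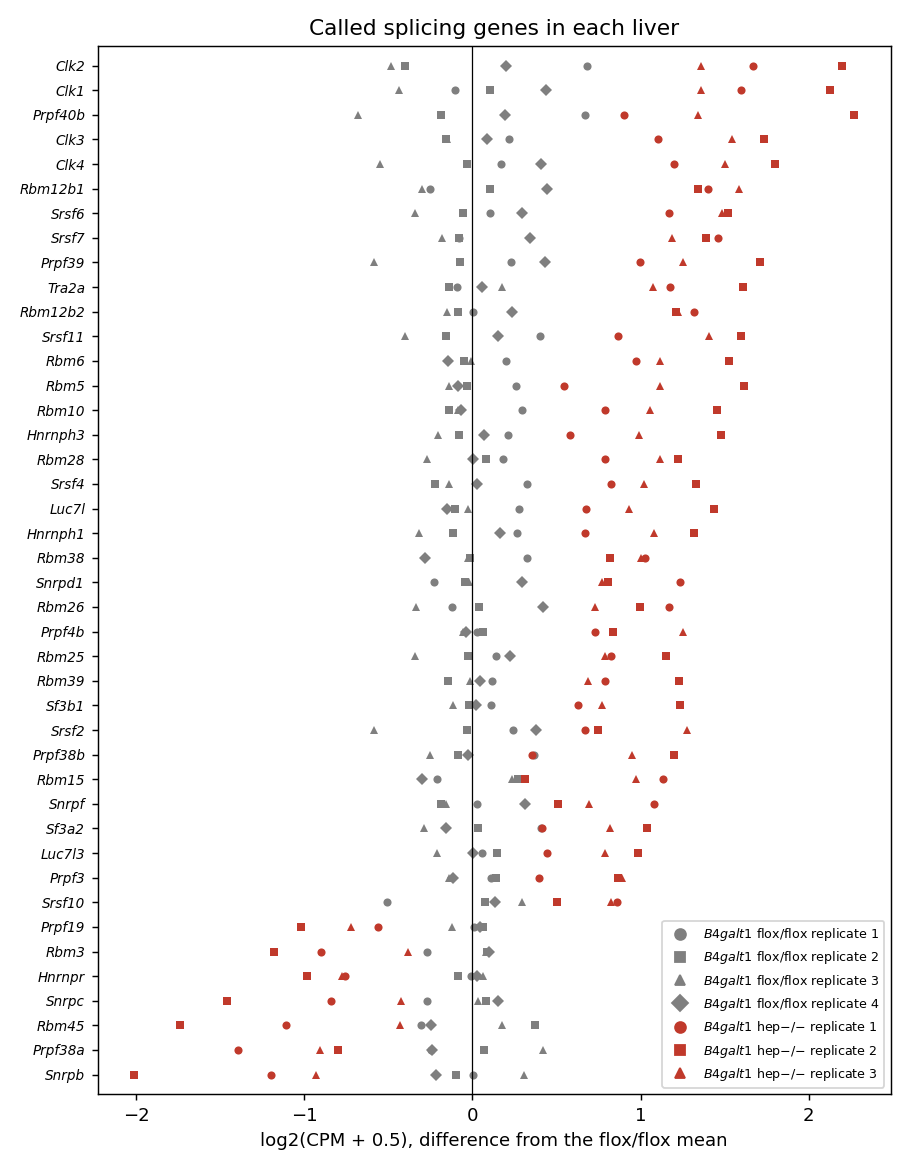
Each row is 1 of the 42 called splicing genes, ordered by fold change, and the x axis gives the log2(CPM + 0.5) of each liver minus the B4galt1 flox/flox mean. Grey markers are B4galt1 flox/flox livers (n = 4), red ones livers labelled B4galt1 hep-/- (n = 3), and shapes are replicate numbers. Red and grey are separated in 41 rows, and among the 35 increases replicate 2 of the livers labelled B4galt1 hep-/- lies highest in 23.

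The livers did not contribute evenly to these differences. Among the 35 increased genes, replicate 2 of the livers labelled B4galt1 hep-/- was the highest of the 7 livers in 23, replicate 1 in 8 and replicate 3 in 4. B4galt1 flox/flox replicate 3 was the lowest in 23. Of the 7 decreased genes, replicate 2 of the livers labelled B4galt1 hep-/- was the lowest in 6. Over all 110 tested splicing genes the order differed. There the median log2 difference from the B4galt1 flox/flox mean was 0.32 in replicate 1 of that group, 0.16 in replicate 2 and 0.40 in replicate 3. In single B4galt1 flox/flox livers this median lay between -0.06 and 0.10. Replicate 2 of the livers labelled B4galt1 hep-/- was the highest of the 7 livers in 30 genes and the lowest in 25. For replicate 3 these counts were 18 and 2. Of the calls, 21 of the 35 increases and 2 of the 7 decreases were kept in every fit that left out 1 mouse, the decreases being Snrpb and Hnrnpr, and none of the 42 changed sign. Of the other increases, Hnrnph1, Rbm25, Rbm39 and Sf3b1 were kept in 6 of the 7 fits, Prpf40b in 5, Rbm38 in 4, Luc7l3, Snrpf and Srsf2 in 3, Prpf3, Prpf38b, Sf3a2 and Srsf10 in 2, and Rbm15 in 1. Of the other decreases, Prpf19 was kept in 5, Prpf38a in 4, and Rbm3, Rbm45 and Snrpc in 2.

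A list of 126 other genes of the splicing machinery, all of them tested, was read from the same fit. Of these, 17 (13.5%) were called higher and 5 (3.97%) lower, beside 8.00% and 7.83% of tested genes, with a median log2 fold change of 0.11. The difference between this list and the splicing families was not tested. SR-related and exon junction proteins had 6 increases and no decreases among 19 genes (median 0.59; 0 lower at an unadjusted p under 0.05 and 0 by DESeq2), Srek1 and Bclaf1 among them with log2 fold changes of 1.12 and 0.82. Branch site proteins and RNA helicases had 4 increases and 1 decrease among 18. Bud13, of the retention and splicing complex, had the largest fold change of the list, 3.49-fold, at 5.61, 10.2, 5.22 and 5.71 CPM against 31.1, 24.7 and 14.2 CPM (adjusted p = 0.00581 by edgeR). Snrnp48, of the minor spliceosome, rose 2.30-fold, from 9.52, 11.7, 10.3 and 12.4 CPM to 25.6, 27.1 and 23.0 CPM. Tia1, which aids recognition of weak 5′ splice sites, rose 2.29-fold, from 16.9, 10.1, 11.4 and 11.3 CPM to 24.8, 39.4 and 21.1 CPM.

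Of 30 other splicing regulators 4 were called higher and 1 lower, and of 17 U1, U5 and minor snRNP genes 3 were higher and 1 lower, beside 8.00% and 7.83% of tested genes. None of 11 tri-snRNP and B complex genes was called in either direction by edgeR or DESeq2, and none had an unadjusted p under 0.05. Of 20 Prp19 complex and catalytic step genes none was called higher by edgeR (3 at an unadjusted p under 0.05, 1 by DESeq2) and 1 was lower, Snw1, from 30.8, 39.4, 48.0 and 31.6 CPM to 20.1, 19.1 and 21.8 CPM. Among 7 LSm genes, whose products bind U6 snRNA or mRNA, none was called higher (1 at an unadjusted p under 0.05, 0 by DESeq2) and Lsm4 was lower, from 25.1, 19.9, 21.6 and 29.3 CPM to 14.3, 10.6 and 15.6 CPM. Snrnp25, of the minor spliceosome, fell from 4.30, 4.24, 4.45 and 4.04 CPM to 2.21, 1.21 and 2.11 CPM (log2 fold change -1.21, SE 0.32, adjusted p = 0.0272 by edgeR). The groups of Snw1, Lsm4 and Snrnp25 were separated. The calls of Snw1 and Tia1 were lost without B4galt1 flox/flox replicate 2, that of Lsm4 without replicate 4 of that group or replicate 2 of the livers labelled B4galt1 hep-/-, and that of Snrnp25 without B4galt1 flox/flox replicate 2, 3 or 4 or replicate 2 of the other group. Without B4galt1 flox/flox replicate 1, 19 genes of the list were called higher and 5 lower, beside 8.66% and 7.41% of tested genes. Without its replicate 2 these were 9 and 1, beside 2.74% and 3.16%. Without its replicate 3 they were 10 and 3, beside 4.65% and 4.71%, and without its replicate 4 they were 14 and 3, beside 4.98% and 5.35%. Without replicate 1, 2 or 3 of the livers labelled B4galt1 hep-/- they were 18 and 3, 11 and 1, or 12 and 5. The shares beside these were 6.48% and 5.21%, 3.92% and 3.84%, or 6.28% and 7.51%.

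Transcript annotation was also compared. Transcripts of Clk and Srsf genes are known to be retained in the nucleus with an unspliced intron or to carry exons with an early stop codon, which lead to nonsense-mediated decay. In the GENCODE annotation, 55 of the 110 splicing genes had a transcript marked for nonsense-mediated decay, and so did 24 of the 35 called higher (68.6%) and 3 of the 7 called lower, beside 26.2% of tested genes found there and 36.8% of the other splicing list. A transcript with a retained intron was annotated for 74.5% of the splicing genes, for 73.6% of the other splicing list and for 55.0% of tested genes. Of the 82 splicing genes with such a transcript 28 (34.1%) were called higher, and of the 28 without one 7 were, whereas the shares were 15.2% and 9.09% in the other splicing list and 8.90% and 6.52% among all tested genes. Level differed too, since the splicing genes with such a transcript had a higher median log2 CPM, 5.41, than those without, 4.56. Counts per gene do not tell these transcripts apart. Another annotated gene overlapped 12 of the 35 increased genes, 2 of the 7 decreased ones and 24 of the 68 that were not called. Called genes with such a partner included Clk2, Clk4, Srsf2, Srsf4, Prpf39, Prpf40b and Prpf38a, and reads of the partner could be counted with them.

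Other measures moved between the same groups. The counts of called genes given here stand beside 8.00% of tested genes called higher and 7.83% lower. RNAs that stay in the nucleus gave 1 increase among 4, Kcnq1ot1 (log2 fold change 1.66, adjusted p = 0.0424 by edgeR), and Malat1, Neat1 and Meg3 had log2 fold changes of 0.67 (adjusted p = 0.279), 0.75 (adjusted p = 0.332) and -0.74 (adjusted p = 0.427) by edgeR. Their levels added up to 390 to 2215 CPM among controls and to 1455 to 2706 CPM in the other group. Of 6 macrophage markers 3 were called lower, Adgre1, Cd68 and Lyz2, and none higher at an unadjusted p under 0.05 or by DESeq2, with summed levels of 919 to 2111 CPM and 342 to 450 CPM. Of 5 endothelial markers 1, Kdr, was lower, at summed levels of 52.0 to 200 CPM and 83.5 to 99.6 CPM. None of the 6 hepatocyte markers was called by edgeR (1 higher at an unadjusted p under 0.05 and 1 by DESeq2), and their summed levels were 85263 to 125781 CPM and 97788 to 155613 CPM. None of the 6 stellate and fibroblast, 5 cholangiocyte and 6 lymphocyte markers was called by edgeR, where 1 lymphocyte marker was higher at an unadjusted p under 0.05 and by DESeq2. Their summed levels in B4galt1 flox/flox livers and in livers labelled B4galt1 hep-/- were 780 to 1145 and 678 to 1154 CPM, 253 to 656 and 259 to 870 CPM, and 48.7 to 76.2 and 64.2 to 110 CPM, in the same order. No marker named here was at 0 in any group. When the 13 mitochondrially encoded protein genes were left out before normalization, the same 35 splicing genes were called higher and the same 7 lower. The part of cell type make-up, nuclear RNA content and RNA quality in the differences between splicing genes was not tested.

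The counts of called genes were recomputed under other processing. With DESeq2, 38 splicing genes were called higher and 9 lower, beside 11.3% and 10.3% of tested genes. The shares of tested genes were 8.19% and 7.59% with RLE factors, 8.29% and 7.40% with upper-quartile factors and 7.89% and 7.92% without the mitochondrial genes, and in all of these 35 splicing genes were higher and 7 lower. Without a filter on low counts 35 and 8 were called, beside 6.35% and 5.93%, and with at least 10 counts in every mouse 36 and 7, beside 8.94% and 8.88%. With voom and sample quality weights 39 and 10 were called, beside 10.2% and 9.53%. On the FPKM scale, 28 and 11 were called with a pseudocount of 1, beside 5.14% and 15.9%, 30 and 12 with a pseudocount of 0.1, beside 5.51% and 17.8%, and 10 and 7 without a filter, beside 1.05% and 4.74%. With an absolute log2 fold change over 1, 21 and 3 were called, beside 5.09% and 3.78%.

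**Figure D4:**
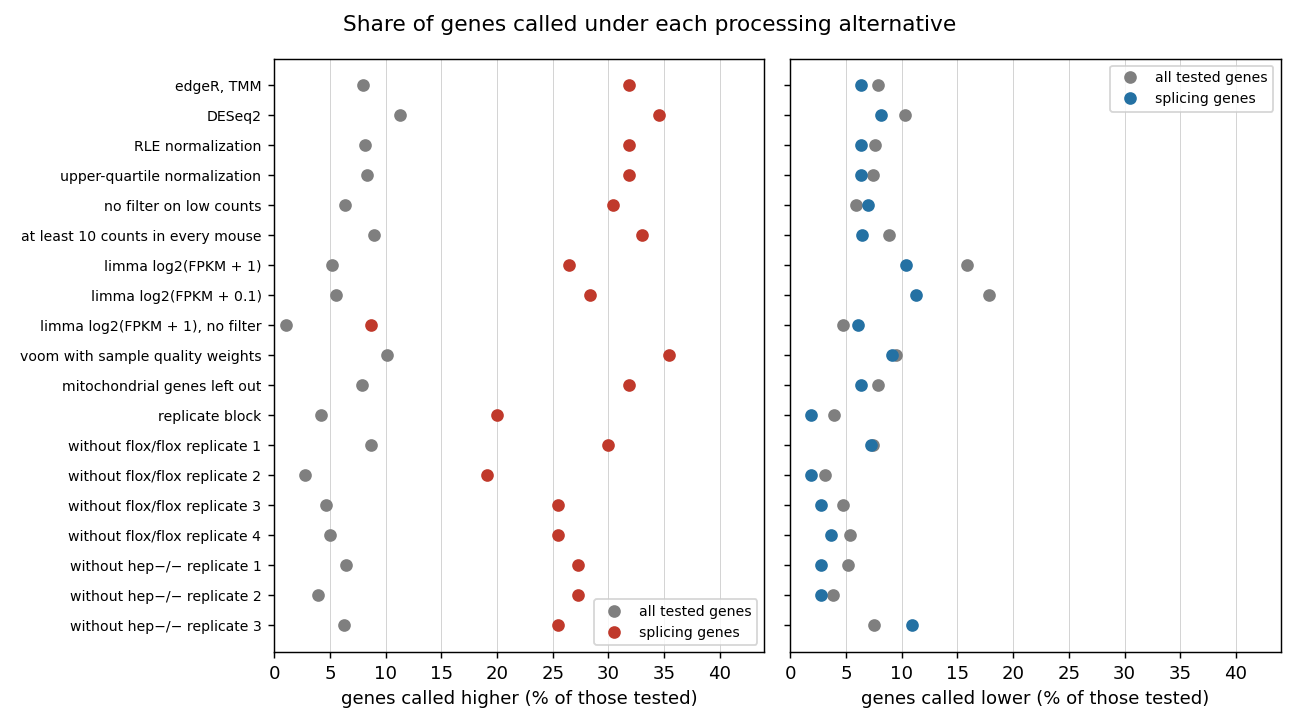
The x axes give the percentage of genes called higher (left) and lower (right) in livers labelled B4galt1 hep-/-, for all tested genes (grey) and splicing genes (red or blue), and each row is a processing alternative or a fit without 1 mouse. The red points run from 8.70% to 35.5% and lie right of the grey point in every row, whereas blue and grey points lie closer and change order between rows.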

How the data were processed

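RNA from 7 livers, 1 per mouse, was analysed, with groups and replicate numbers taken from the sample labels. Extraction was with TRIzol and library preparation with the VAHTS Universal V6 kit. The authors deposited raw counts per gene and the FPKM values of the same genes and mice. The submitters' processing notes name fastp, HISAT2, HTSeq, DESeq2, R 3.2.0 and the build GRCm39, and strand settings were not given in the sources used here. The FPKM values deposited by the authors equalled the count over a fixed gene length and the library total, within 1 percent for every one of the 13374 genes with at least 10 counts in each mouse. No 2 libraries agreed within sampling noise.

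Genes passing edgeR's filterByExpr (minimum count 10, minimum total 15) were scaled by TMM factors, and a quasi-likelihood test of group was run in edgeR 4.0.16 (R 4.3.3), with Benjamini-Hochberg adjustment over 15179 genes. The SE printed with an edgeR test is the absolute log2 fold change divided by the square root of the quasi-likelihood F statistic. The fold threshold of 0.58 on the log2 scale was that of the study, which used DESeq2. CPM values are TMM-scaled, and 3 counts equal 0.0756 to 0.0980 CPM of the library totals before TMM scaling. The tests were checked on simulated data. The counts of called splicing genes, their median log2 fold change, the calls of the other list and the named genes were recomputed with DESeq2 1.42.0, with upper-quartile or RLE factors, with other low-count filters, with voom weights, with other fold thresholds (counts only), with a replicate block and without each mouse. They were also recomputed with limma 3.58.1 on log2 FPKM values (pseudocount 1 or 0.1, FPKM minimum of 1 in 3 mice or no minimum).

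The members, gene lists and tests were chosen with earlier results of these data known. The text was to name, for each family, the called gene of largest change in each direction and the gene of highest mean FPKM, then the 10 called genes of largest change with a mean CPM not below the median, the 4 Clk genes, Srsf3, Srsf5, Rbm3, the U2af and Tra2 genes, and of the other list the 3 largest called changes each way. All other genes were named after their values were seen. Annotation was GENCODE M21 and promoters were RefSeq, both on GRCm38, so no positions in the authors' build are given.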

Additional observations from a re-analysis of the deposited data

Results flagged for a closer look

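Among 36 genes checked, B4galt1 and those chosen by the naming rule, 4 had a B4galt1 flox/flox liver far from the other 3 by Dixon's criterion, which chance meets in about 1 of 20 groups. Rbm3 was at 92.4 CPM in replicate 1 and at 118 to 120 CPM in the others. Srsf7 was at 45.1 CPM in replicate 4 and at 31.4 to 33.6 CPM in the others. U2af2 was at 86.6 CPM in replicate 1 and at 64.0 to 66.3 CPM in the others. Bud13 was at 10.2 CPM in replicate 2 and at 5.22 to 5.71 CPM in the others. In each of the 4 the distant liver lay toward the livers labelled B4galt1 hep-/-.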

How the results depend on the processing

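With RLE and upper-quartile factors, without the 13 mitochondrial genes, without a low-count filter and with at least 10 counts in every mouse, all 35 increases and 7 decreases were kept. DESeq2 called 38 higher and 9 lower, and voom 39 and 10. Without a low-count filter the median log2 fold change was 0.22. The FPKM scale lowered the log2 fold changes of the same genes by a median shift of -0.12 (pseudocount 1) or -0.13 (pseudocount 0.1). There the splicing genes had 28 increases, 11 decreases and a median of 0.16, or 30, 12 and 0.19, and the other list had 11 increases and 11 decreases under both. Increases made up 71.8% of the calls of splicing genes with pseudocount 1 in place of 83.3%, and 24.5% of those of all genes in place of 50.5%. With no FPKM filter 10 were higher, the median was 0.079 and 6 of the other list were higher. With an absolute log2 fold change over 1, 21 and 3 splicing genes and 6 and 1 of the other list were called.

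Over the fits without 1 mouse, increases ranged from 21 to 33, decreases from 2 to 12, the median log2 fold change from 0.25 to 0.35, and the other list's increases from 9 to 19 and decreases from 1 to 5. Srsf3 had a log2 fold change of -0.046 with pseudocount 1, with or without the FPKM filter, and -0.047 with pseudocount 0.1, and ranged from -0.0074 to 0.17 over the fits without 1 mouse, the lowest being that without replicate 1 of the livers labelled B4galt1 hep-/-, and U2af1l4 ranged from -0.0095, without replicate 3 of that group, to 0.21. B4galt1 was called lower without replicate 3 of that group (log2 fold change -0.96) and on the FPKM scale. The cause of these differences was not tested.

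Replicate numbers 1 to 3 are shared between groups, and deviations of same-numbered mice correlated at -0.42, -0.10 and 0.09. So few correlations cannot decide whether the numbers pair the mice, and the main fit treated the mice as unpaired. With the replicate block, which leaves out B4galt1 flox/flox replicate 4, 22 splicing genes were called higher and 2 lower (8 and 1 in the other list), beside 4.22% and 3.92% of tested genes.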
